A study of Mus musculus with 12 samples.

Results

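The transcripts of 10 chaperone genes were followed through oocyte growth and meiotic maturation in wild-type (WT) and Zar1/2-null mice. The genes were chosen by name from the deposited expression table, which lists 23230 genes: the cytosolic HSP90s Hsp90aa1 and Hsp90ab1 with their co-chaperone Stip1, the cytosolic HSP70 system Hspa8, Dnaja1 and Hspa4, the endoplasmic reticulum (ER) HSP70 Hspa5, and the mitochondrial chaperones Hspa9, Hspd1 and Hspe1. All 10 were measured in each of the 12 libraries and all 10 were among the 11502 genes that reached 1 FPKM in at least 1 library.

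HSP70 proteins bind unfolded stretches of a client protein and release them in an ATP-driven cycle that J-domain proteins start and nucleotide exchange factors end. HSP90 takes over partly folded clients, many of them kinases, and Stip1 (also called HOP) holds HSP70 and HSP90 together during the hand-over. In mitochondria, Hspa9 pulls imported chains through the inner membrane and the Hspd1 (HSP60) chamber with its Hspe1 (HSP10) lid folds them. A fully grown oocyte does not transcribe, so a transcript level after meiotic resumption reads what remains of a stored pool.

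Oocytes of WT and Zar1/2-null females on a C57BL6/ICR hybrid background were sequenced at 3 stages, in 2 libraries of 10 oocytes for each of the 6 groups. The null females carried CRISPR deletions in Zar1, with a stop codon close behind the start, and in Zar1l (Zar2), with a shifted reading frame. Both are oocyte genes for RNA-binding proteins, and no agent set the genotypes apart. Growing oocytes came from 13.5-day-old females, germinal vesicle (GV) oocytes from 21-day-old females 44 h after PMSG (a gonadotropin that drives follicle growth), and MII oocytes were ovulated ones taken 16 h after hCG, which triggers ovulation. The age of the growing group is that of the labels, and the methods text gives a slightly younger one. The MII group is defined by its collection time. The study describes ovulated null oocytes as held in the first meiotic division. Genotype and meiotic stage therefore cannot be told apart in MII comparisons of these libraries, and null MII names the collection only. The study also arrested maturing oocytes in meiosis I with nocodazole and found decay of selected mRNAs unaffected. Whether that holds for the chaperone messages was not tested here. Nothing in the labels says that the 2 libraries of a group came from separate females, so the p-values measure the spread between these libraries, which may be technical.

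Levels are FPKM (fragments per kilobase of transcript, scaled to the mapped reads of the library) that the authors multiplied by a factor from the ERCC spike-in RNAs, so that they follow RNA per oocyte relative to WT growing oocytes. The factors recovered from the table were 0.862 and 0.779 in null growing oocytes, 0.836 and 0.697 in WT GV, 0.533 and 0.583 in null GV, 0.225 and 0.228 in WT MII and 0.283 and 0.252 in null MII oocytes. Because these factors move all genes of a library together, each difference was also computed without them and after setting the libraries to a common median. Fewer intact oocytes in a library and less RNA per oocyte cannot be told apart in such pools. The libraries were made with oligo(dT) priming, so a lost transcript and a lost poly(A) tail cannot be told apart either.

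The oocyte identity of the libraries held: all 9 oocyte markers examined (Zp3, Gdf9, Bmp15, Ooep, Nlrp5, Ddx4, Dppa3, Figla and Kit) were at 1 FPKM or more in both libraries of 5 groups, and 8 of 9 in WT MII, with summed levels of 2352 to 15225 FPKM. The summed level of 12 granulosa and cumulus markers moved with genotype. It was 22.8 to 26.2 FPKM in WT and 5.85 to 10.4 in null growing oocytes, 13.1 to 15.2 and 9.41 to 11.2 in WT and null GV, and 4.21 to 4.35 and 6.04 to 7.24 FPKM in WT and null MII oocytes. Of these markers 1 to 3 reached 1 FPKM in both libraries of a group, and none of 6 theca and stroma markers reached 1 FPKM in both libraries of any group. Of 6 immune markers, 1 was at 1 FPKM or more in both libraries of each group (Cd68 in null growing oocytes and H2-Aa in the others), and the immune sum moved with genotype, at 54.7 to 94.5 FPKM in WT and 4.05 to 4.07 in null growing oocytes and at 20.9 to 40.5 and 2.14 to 5.94 FPKM in WT and null GV oocytes. In MII oocytes the null was the higher, at 2.72 to 3.37 FPKM against 1.92 to 2.19 in WT. The 5 epithelial markers moved the other way at the growing stage, at 32.2 to 33.8 FPKM in WT and 91.3 to 108 in null oocytes. Whether these signals bear on the chaperone values was not tested. Zar1l was at 17.5 and 13.2 FPKM in null and 639 and 644 in WT growing oocytes, a limma log2 fold change of -5.31 ± 0.19 (SE, adjusted p = 2.56e-08). Zar1, in contrast, was still at 407 and 460 FPKM in null growing oocytes against 603 and 725 in WT, and in MII oocytes it was higher in the null libraries (190 and 194 FPKM against 83.6 and 72.4). An allele with an early stop codon can leave its transcript in place, so the Zar1 level does not check the genotype.

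In WT growing oocytes the chaperones were abundant messages. Hsp90aa1, the inducible HSP90, led at 1478 and 1284 FPKM, ranks 49 and 57 among the genes tested. Hspa8, the constitutive cytosolic HSC70, followed at 992 and 1025 FPKM. Hspe1 stood at 333 and 310, Hsp90ab1 (the constitutive HSP90) at 231 and 233, and Dnaja1 (a J-domain partner of Hspa8) at 205 and 197 FPKM. Hspa9 was at 108 and 127, Stip1 at 94.4 and 102, Hspa5 (BiP, the main ER chaperone) at 89.7 and 104, Hspd1 at 58.1 and 60.1 and Hspa4 (an HSP110-type exchange factor for HSP70) at 48.9 and 55.3 FPKM. In this order only Stip1 and Hspa5 overlapped between neighbouring genes. The heat-inducible HSP70 genes Hspa1a and Hspa1b were below 1 FPKM in every library of the series. They are near-identical copies and only uniquely mapped reads were kept, so their level is uncertain, and processed pseudogenes make the levels of Hspa8 and Hsp90ab1 uncertain in the same way.

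**Figure D1:**
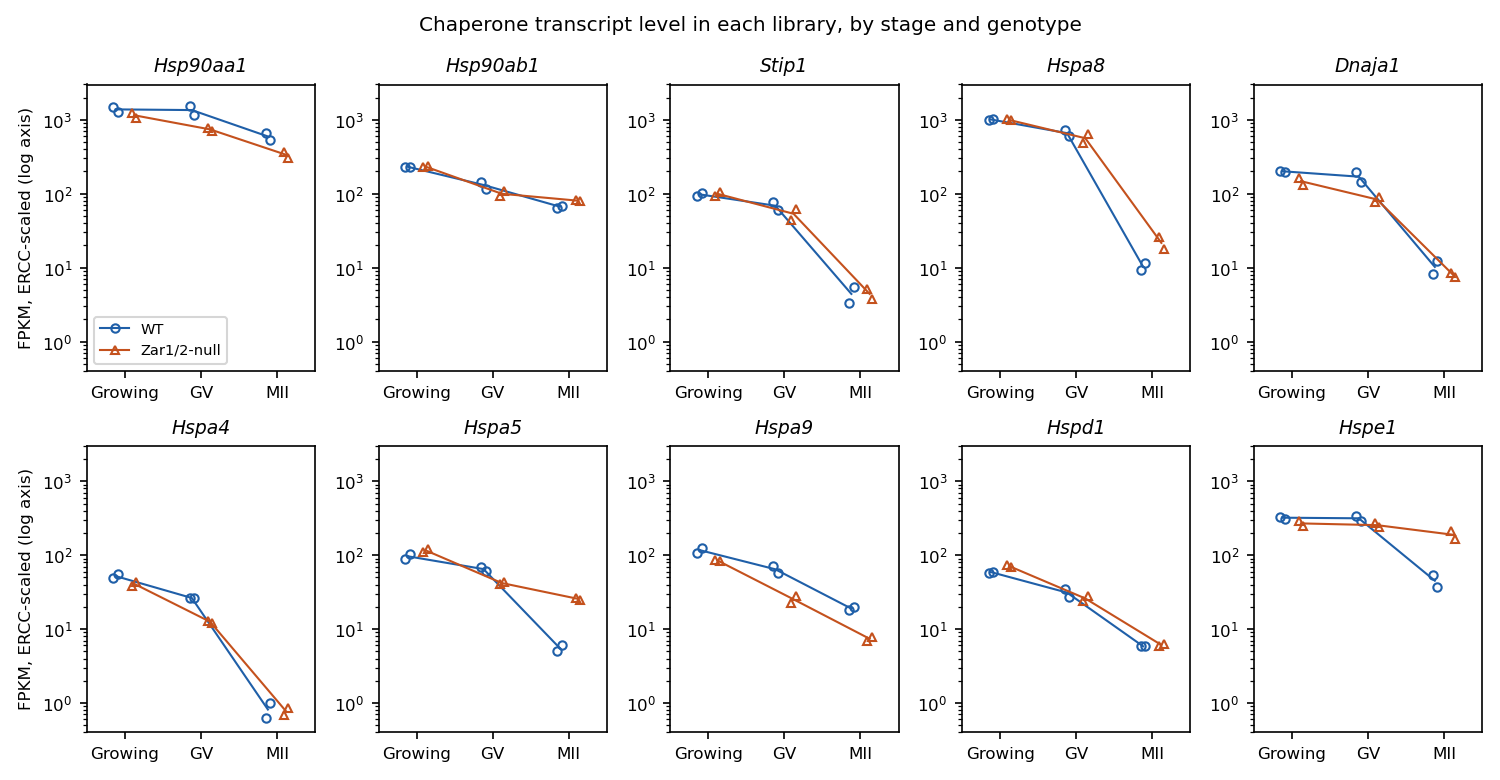
Level of each of the 10 chaperone genes in FPKM with ERCC scaling (y axis, logarithmic) at the growing, GV and MII stages (x axis). Open circles are the 2 WT libraries and open triangles the 2 Zar1/2-null libraries of a stage, and lines join the group means. Hspa8, Dnaja1, Hspa4 and Stip1 drop steeply from GV to MII in both genotypes, whereas Hspe1 and Hspa5 drop steeply in WT and much less in null oocytes.

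From the growing to the GV stage, 6 of the 10 genes were lower in WT oocytes (limma adjusted p below 0.05, against 28.7% of all genes tested that were lower) and none was higher (2.77% of all genes). They were Hsp90ab1, Hspa8, Hspa5, Hspa4, Hspa9 and Hspd1, with log2 fold changes between -0.57 and -0.95. The call of Hspa8 was lost without any 1 of the 4 libraries, and that of Hspa5 without WT growing or WT GV replicate 2. Hspa8 also lost its call with a pseudocount of 0.1 FPKM and with no filter, and kept it in 4 of 12 alternatives. The call of Hspa5 was also lost in the fit on the compared groups alone and held in 7 of 12. No change could be shown for Hsp90aa1 (1478 and 1284 FPKM to 1535 and 1171, a log2 difference of -0.04 with a 95% interval of -0.46 to 0.38) or for Hspe1. In null oocytes 9 of the 10 were lower at GV than in growing oocytes (55.9% of all genes) and none was higher (4.76%), and Hspe1 was not called, at 271 and 239 FPKM in GV and 288 and 251 in growing oocytes. Without null growing replicate 1 Hsp90aa1 and Dnaja1 lost their call, without null GV replicate 1 Dnaja1 and Stip1, and without null GV replicate 2 Hsp90aa1. Without the ERCC factors the counts were 1 in WT and 5 in null oocytes, and the median of all genes went from -0.29 to 0.02 in WT and from -0.50 to -0.08 in null oocytes.

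At the growing stage no difference between the genotypes was called. None of the 10 genes was higher (10.6% of all genes tested) or lower (24.4%) by limma. Both null libraries were above both WT libraries for 2 genes (22.4% of all genes) and below them for 5 (47.4%). Hspa9 came nearest, at 86.7 and 82.8 FPKM in null against 108 and 127 in WT oocytes, a log2 fold change of -0.46 ± 0.17 (adjusted p = 0.0511). Its 95% interval, not adjusted over genes, was -0.83 to -0.10. Hspa5 and Hspd1 were slightly above WT in both null libraries (111 and 121 against 89.7 and 104 FPKM, and 74.0 and 68.2 against 58.1 and 60.1). Both were called higher once the ERCC factors were taken out, with log2 fold changes of 0.55 each.

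At GV many transcripts were lower in the null, the chaperones among them, to an extent that depended on the ERCC factors. Limma called 5 of the 10 genes lower (40.6% of all genes tested were lower) and none higher (2.83%). Without the factors 2 were called lower. The median log2 fold change of the 10 was -0.50 beside -0.38 for all genes. The groups did not overlap for 7 genes, all lower (63.6% of all genes, with 6.79% higher). Hspa9, the mitochondrial HSP70, had the lowest of the 10 log2 values: 22.4 and 28.1 FPKM in null against 70.7 and 58.2 in WT GV oocytes, a log2 fold change of -1.32 ± 0.17 (adjusted p = 0.000174). Both null libraries lay well below both WT libraries.

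Dnaja1 measured 76.2 and 90.7 FPKM in null and 197 and 143 in WT GV oocytes (95% interval of the log2 fold change -1.48 to -0.53, limma adjusted p = 0.0039). Hspa4 measured 13.1 and 12.1 against 26.2 and 26.5 (-1.01 ± 0.15, limma adjusted p = 0.000446). Both HSP70 partners were lower in each null library than in either WT library, while their HSP70, Hspa8, was at 492 and 634 FPKM in null and 717 and 602 in WT, with overlapping groups. The ratio of Hspa8 to Dnaja1 within a library, which no scaling changes, was 6.46 and 6.98 in null and 3.64 and 4.20 in WT GV oocytes.

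Hsp90aa1 was at 773 and 709 FPKM in null and 1535 and 1171 in WT GV oocytes (log2 fold change -0.86 ± 0.19, limma adjusted p = 0.00476). Hsp90ab1 was at 92.1 and 107 against 145 and 117 and missed the threshold (adjusted p = 0.0597). Hspa5 was lower at 40.9 and 43.1 against 68.7 and 60.9 FPKM (-0.61 ± 0.15, limma adjusted p = 0.00715). Without WT GV replicate 1 Hsp90aa1 and Hspa5 missed the threshold (limma adjusted p = 0.0563 and 0.0515). The ERCC factors accounted for a shift of the median of all genes from -0.03 to -0.38 at this stage. Without them only Hspa9 (-0.89, limma adjusted p = 0.002) and Dnaja1 (-0.56, 0.041) were called lower, and with median scaling only Hspa9 (-0.73, 0.007). Hspa5 then lay at -0.17 and -0.03, and Hspe1, Hspd1, Hsp90ab1, Hspa8 and Stip1 had log2 values above 0.

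**Figure D2:**
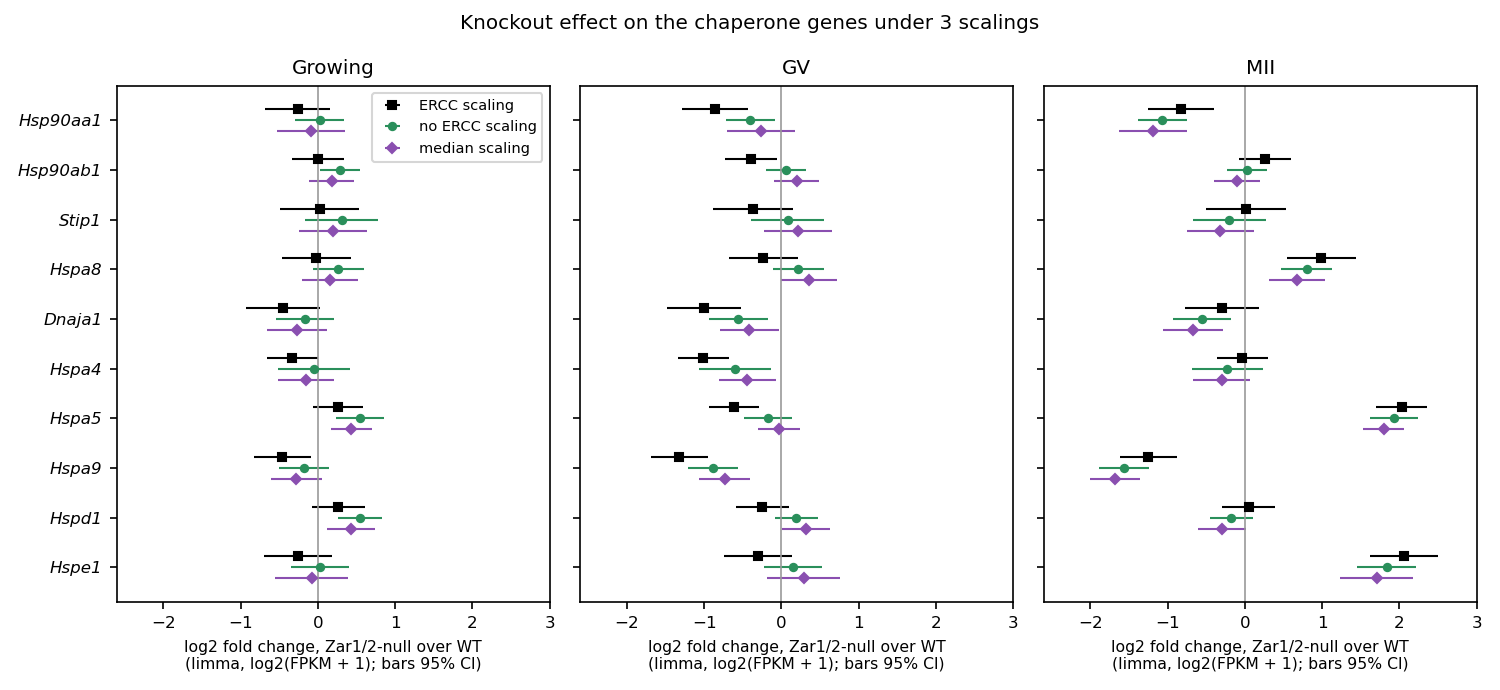
Log2 fold change of Zar1/2-null over WT oocytes (x axis, limma on log2(FPKM + 1)) for each gene (rows) at the growing, GV and MII stages (panels). Squares use the ERCC-scaled values, circles the values without ERCC scaling and diamonds median scaling, and bars are 95% confidence intervals. In MII oocytes Hspa8, Hspa5 and Hspe1 lie above 0 and Hsp90aa1 and Hspa9 below 0 with every scaling, whereas at GV most genes shift towards 0 when the ERCC factors are left out.

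Over meiotic maturation all 10 messages fell in WT oocytes. They were lower in MII than in GV oocytes, as were 93.4% of all genes tested (0.104% were higher), and the median log2 fold change was -3.06 for the 10 and -1.28 for all genes (-0.43 for all genes without ERCC scaling and 0.12 with median scaling). The cytosolic HSP70 set fell most. Hspa8 dropped from 717 and 602 to 9.17 and 11.4 FPKM, a log2 fold change of -5.87 ± 0.20 (limma adjusted p = 4.21e-10), and 1.3% of all genes had a lower value.

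Dnaja1 (197 and 143 to 8.09 and 12.3 FPKM, log2 fold change -3.94), Hspa4 (26.2 and 26.5 to 0.622 and 1.01, -3.92) and Stip1 (77.3 and 60.1 to 3.34 and 5.47, -3.71) followed. Hspa5 fell from 68.7 and 60.9 to 5.06 and 6.04 FPKM (-3.33). These 5 genes had a GV mean more than 10-fold the MII mean, as did 15.7% of all genes. In null oocytes 4 of them, all but Hspa5, passed the same rule (6.66% of all genes). Their fall in WT oocytes held with every scaling, at -0.82 to -3.27 with median scaling.

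The HSP90s fell least. Hsp90aa1 went from 1535 and 1171 to 653 and 537 FPKM and Hsp90ab1 from 145 and 117 to 64.7 and 68.9, log2 fold changes of -1.18 and -0.95 beside the median of -1.28 over all genes. Without ERCC scaling both were higher in MII oocytes (0.58 and 0.79, limma adjusted p = 0.0041 and 0.00012), and with median scaling at 1.52 and 1.72. Hspa9 fell more than the HSP90s with ERCC scaling (-1.71), was near 0 without it (-0.01) and was higher with median scaling (0.92). Hspd1 fell by 2.22 on the log2 scale and Hspe1 by 2.80, and both were near 0 with median scaling (0.29 and -0.12).

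In null oocytes limma called 8 of the 10 lower in MII than in GV oocytes (68.7% of all genes) and none higher (0.209%), with Hspe1 and Hsp90ab1 not called. With ERCC scaling Hsp90ab1 went from 92.1 and 107 to 81.1 and 79.7 FPKM, a log2 difference of -0.30 that turned to 0.75 without it. The log2 values of the 8 called genes lay between -0.69 (Hspa5) and -4.65 (Hspa8).

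The mixture of chaperone messages changed with maturation in WT oocytes. The 10 genes made up 0.557 and 0.531% of the summed FPKM in GV and 0.640 and 0.582% in MII libraries. Within that sum Hsp90aa1 rose from 47.8 and 45.8% to 79.5 and 76.2%. Hspa8 went from 22.3 and 23.6% to 1.12 and 1.62%.

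**Figure D3:**
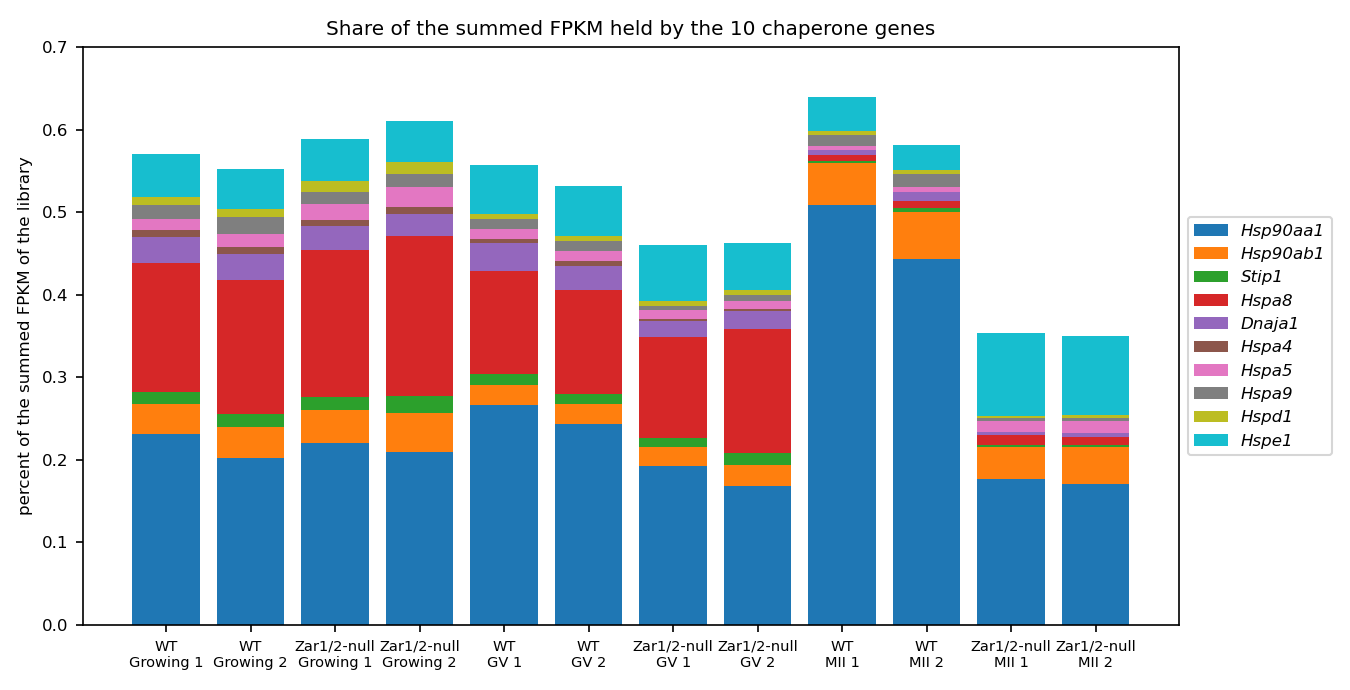
Share of the summed FPKM of each library (y axis, percent) taken by each of the 10 genes, stacked, for the 12 libraries (x axis). Shares do not depend on the ERCC factors. The 2 WT MII bars are mostly Hsp90aa1, and the 2 null MII bars are the lowest at 0.353 and 0.350%, with the widest Hspe1 segments.

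In MII oocytes the genotypes parted in both directions. Limma called 3 of the 10 genes higher in null oocytes (21.5% of all genes tested) and 2 lower (10.3%), and all 5 calls held without ERCC scaling and with median scaling. The median log2 fold change of the 10 was 0.03, beside 0.06 for all genes. The groups did not overlap for 5 higher (43.5% of all genes) and 2 lower genes (27.8%). By the rule of more than 3-fold between group means, Hspe1 and Hspa5 were higher (7.49% of all genes) and none was lower (1.32%). No gene of the 10 passed that rule in growing (0.982% of all genes higher and 3.54% lower) or GV oocytes (0.461% and 4.20%).

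Hspe1, the HSP10 lid of the mitochondrial folding chamber, stood at 210 and 168 FPKM in null and 53.4 and 36.9 in WT MII oocytes. Both null libraries were above either WT library by a wide margin, and the log2 fold change was 2.06 ± 0.20 (limma adjusted p = 1.09e-05). It ranked 186 and 187 among the genes tested in null MII oocytes, above its place in any other group, and 397 and 534 in WT. From GV to MII it fell in WT oocytes, whereas in null oocytes it went from 271 and 239 to 210 and 168 FPKM, a log2 difference of -0.44 that missed the threshold (95% interval -0.87 to 0.00, limma adjusted p = 0.0713) and turned to 0.62 without ERCC scaling. This fall passed the threshold with the replicate number as a block (limma adjusted p = 0.0127) and without null MII replicate 1 (log2 difference -0.60, limma adjusted p = 0.0489). The genotypes differed in this change by 2.36 ± 0.28 (interaction, limma adjusted p = 9.04e-05), and by 1.69 without ERCC scaling and 1.42 with median scaling.

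Hspd1, the chamber itself, did not follow. It was at 5.94 and 6.26 FPKM in null and 5.82 and 5.88 in WT MII oocytes, a log2 difference of 0.05 with a 95% interval of -0.29 to 0.39, well short of the change of Hspe1. The ratio of Hspe1 to Hspd1 was 9.17 and 6.28 in WT MII and 35.3 and 26.8 in null MII libraries, while at GV it was 9.71 and 10.6 in WT and 11.4 and 8.50 in null libraries. In growing oocytes the ratio was lower in the null (3.89 and 3.67) than in WT (5.73 and 5.16).

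Hspd1 and Hspe1 lie head to head on chromosome 1 and share a promoter. In the annotation used (GENCODE vM1, NCBIM37) Hspd1 spans chr1:55134679-55145087 on the minus strand and Hspe1 chr1:55144976-55148151 on the plus strand, so the annotated genes overlap by 112 bases. The libraries carry no strand, and reads from such an overlap cannot be assigned to one gene or the other. The authors computed FPKM on UCSC gene models, and whether the pair overlaps in those was not examined. A search of RefSeq promoters (GRCm38.p6, 250 bases before to 50 after each start) for 3 consecutive heat shock units (GAANNTTCNNGAA or TTCNNGAANNTTC, which together cover both strands and can overlap each other) found such an element in 0.662% of 27025 genes. Both ends of the shared promoter hold it, in the 1 RefSeq promoter of Hspe1 and in 1 of the 2 of Hspd1. It lies before both of these starts, so they lie apart, unlike those in GENCODE. It is shown because the pair has 1 such element and 2 transcript patterns, with the heat shock element in capitals (chr1:55088053-55088082).
Hspe1, plus strand, element from base 89 before the start: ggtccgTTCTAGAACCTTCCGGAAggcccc
Hspd1, minus strand, element from base 144 before the start: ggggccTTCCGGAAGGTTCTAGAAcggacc

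Hspa9 was lower where Hspe1 was higher. It was at 6.91 and 7.87 FPKM in null and 18.1 and 19.8 in WT MII oocytes, lower in both null libraries (log2 fold change -1.25 ± 0.17, limma adjusted p = 0.000139), and 1.5% of all genes had a lower value. The difference was the same size at GV (-1.32), and a genotype difference in its maturation change was not shown (0.07, 95% interval -0.45 to 0.59) with ERCC scaling, whereas it was -0.68 without and -0.95 with median scaling. From the growing to the GV stage the genotypes did differ (interaction -0.86 ± 0.24, limma adjusted p = 0.0363), a call that was lost without ERCC scaling and without any 1 of the libraries involved other than replicate 2 of WT GV and of null GV. The ratio of Hspa9 to Hspd1 was lower in null than in WT libraries at each stage: 1.17 and 1.21 against 1.86 and 2.11 in growing, 0.941 and 1.00 against 2.00 and 2.15 in GV and 1.16 and 1.26 against 3.10 and 3.37 in MII oocytes. In null MII oocytes 1 of the 3 mitochondrial messages was higher, 1 was lower and for 1 no difference was shown.

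**Figure D4:**
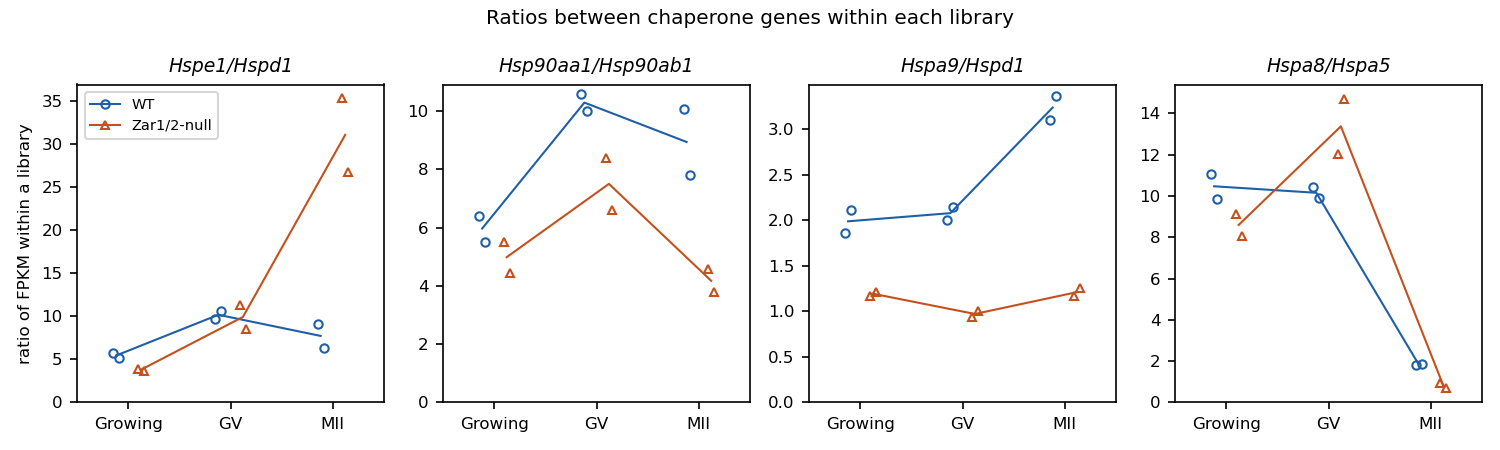
Ratio of FPKM between chaperone genes within each library (y axis, linear from 0) at the 3 stages (x axis), with circles for WT, triangles for Zar1/2-null libraries and lines through group means. The ratio of Hspe1 to Hspd1 is 26.8 and 35.3 in null MII libraries and at most 11.4 elsewhere, and the ratio of Hspa9 to Hspd1 is at most 1.26 in null and at least 1.86 in WT libraries.

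Hspa5, the ER chaperone, turned from lower to higher. Null MII oocytes had 26.5 and 24.8 FPKM where WT had 5.06 and 6.04, with no overlap and a log2 fold change of 2.03 ± 0.15 (limma adjusted p = 1.02e-06). Over maturation it fell by 3.33 on the log2 scale in WT and by 0.69 in null oocytes (limma adjusted p = 0.00154), and by the interaction these changes differed by 2.64 ± 0.21 (limma adjusted p = 3.62e-06), a value higher than in 96.3% of genes. The call held without ERCC scaling, and with median scaling the difference was 1.83. The fall in null oocytes itself turned to 0.35 without ERCC scaling (limma adjusted p = 0.0525) and to a rise of 1.01 with median scaling (limma adjusted p = 2.98e-05). Before maturation the interaction had the opposite sign: from growing to GV, Hspa5 went from 111 and 121 to 40.9 and 43.1 FPKM in null and from 89.7 and 104 to 68.7 and 60.9 in WT oocytes (-0.87 ± 0.21, limma adjusted p = 0.0227), though that call was lost without ERCC scaling and without WT growing replicate 1, null growing replicate 2 or WT GV replicate 1.

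Its promoter carries an ER stress response element (CCAAT, 9 bases of any kind, CCACG, searched on both strands), which 0.137% of the 27025 genes in the RefSeq promoter table hold. It is shown because Hspa5 is the classical gene with this element, in capitals, from 65 bases before the start at chr2:34772020-34772049 (GRCm38.p6, plus strand).
Hspa5 promoter: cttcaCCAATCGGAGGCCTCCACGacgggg
Promoters of Hspa4, Stip1 and Dnaja1 were also in the table and held neither motif. Hsp90aa1, Hsp90ab1, Hspa8 and Hspa9 had no entry.

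Hspa8 remained low in MII oocytes of both genotypes but less so in the null. It stood at 25.6 and 17.6 FPKM in null and 9.17 and 11.4 in WT oocytes (log2 fold change 0.99 ± 0.20, limma adjusted p = 0.00294). The 4 values did not overlap, but set against 492 and 634 FPKM in null GV oocytes the remainder was small. The interaction for maturation was 1.22 ± 0.29 with ERCC scaling (limma adjusted p = 0.00789) and lost its call without it (0.58, 0.078). Hspa5 exceeded Hspa8 in both null MII libraries (ratios of Hspa8 to Hspa5 of 0.964 and 0.709), while the ratio was 1.81 and 1.88 in WT MII and 8.08 or more in all growing and GV libraries.

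None of the cytosolic partners was called higher in the null. Dnaja1 was at 8.56 and 7.40 FPKM in null and 8.09 and 12.3 in WT MII oocytes (log2 fold change -0.30, 95% interval -0.77 to 0.18), with overlapping groups, and was called lower without ERCC scaling (-0.55) and with median scaling (-0.67). Hspa4 was near 1 FPKM in all 4 MII libraries (0.688 and 0.851 in null, 0.622 and 1.01 in WT). Stip1 was at 5.09 and 3.72 in null and 3.34 and 5.47 in WT. At so low a level neither a higher nor a lower Hspa4 value in the null could be detected.

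Hsp90aa1 was the other message that was lower in the null. Null MII oocytes had 371 and 301 FPKM against 653 and 537 in WT, both below either WT library (log2 fold change -0.82 ± 0.19, limma adjusted p = 0.00648). Without WT MII replicate 1 the adjusted p was 0.0658 and without null MII replicate 2 it was 0.0557, at log2 fold changes of -0.68 and -0.67. Hsp90ab1, its constitutive paralog, was at 81.1 and 79.7 FPKM in null and 64.7 and 68.9 in WT, above WT in both libraries but short of the threshold (0.26, 95% interval -0.07 to 0.60). The ratio of Hsp90aa1 to Hsp90ab1 was 4.57 and 3.77 in null and 10.1 and 7.79 in WT MII libraries. Hsp90aa1 made up 48.8% of the summed chaperone FPKM in null MII replicate 2 and a little more in replicate 1.

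By the interaction term, the maturation change of 5 of the 10 genes was higher in null than in WT oocytes (Hsp90ab1, Hspa8, Hspa5, Hspa4 and Hspe1, against 33.9% of all genes tested) and that of none was lower (0.643%). Hspa4 was near 1 FPKM in MII oocytes of both genotypes, so its value restates the difference at GV and does not show a smaller fall. The call of Hsp90ab1 was lost without any 1 of the libraries involved other than replicate 2 of WT GV and of null GV. Hspa5 and Hspe1 were called with each of the 3 scalings and the others were not. Hsp90aa1 and Hspa9 were called in the opposite direction without ERCC scaling (-0.66 and -0.68). Over growth, 2 of the 10 (Hspa5 and Hspa9) fell more in null oocytes (11.3% of all genes) and none fell less (2.58%). These contrasts share libraries with the genotype comparisons at each stage and are not separate evidence.

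The 3′ ends of the transcripts were also examined, since cytoplasmic polyadenylation elements (CPEs) near the poly(A) signal mark messages that oocytes store and later activate. With the longest coding transcript per gene (GENCODE vM1), 9 of the 10 genes had an AATAAA or ATTAAA in the 3′ untranslated region, all but Hsp90aa1. A CPE (TTTTAT or TTTTAAT, sense strand, which may overlap the hexamer) began within 100 bases before the last hexamer in 3 of these 9, and in 20.1% of 9407 tested genes with a hexamer. These were Hsp90ab1, Hspe1 and Stip1. Over maturation the log2 fold change of Hsp90ab1 was -0.95 in WT and -0.30, not called, in null oocytes. That of Hspe1 was -2.80 in WT and -0.44, not called, in null oocytes. Both null values turned positive without ERCC scaling (0.75 and 0.62). Stip1 fell in both genotypes. The 3 elements are shown in capitals with their surroundings (NCBIM37: Hsp90ab1 chr17:45704762-45704791, minus strand; Hspe1 chr1:55148039-55148068, plus strand; Stip1 chr19:7095306-7095335, minus strand).
Hsp90ab1: tttttttgtttgTTTTATtttgttctaaaa
Hspe1: tccatgcctcccTTTTATaataaacagatg
Stip1: tagttggttattTTTTATttggggcagtgg
In Hspe1 an AATAAA follows the element directly and a second one begins 19 bases from the annotated end. Hspa8, with a 3′ untranslated region of 83 bases, Hsp90aa1, Hspd1 and Hspa9 had no CPE anywhere in theirs. The motif occurred in 3 genes with different patterns.

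Genes with the most similar course over the 12 libraries (Pearson r of log2(FPKM + 1), a description that the common fall towards MII raises for most genes) were Gpn1 and Myst1 for Hspa8 (r = 0.999 each) and Samd10 and Glud1 for Hspa5 (r = 0.995 each). For Hspe1 they were 1810022K09Rik and Psmb2 (r = 0.998 each), for Hspa9 Orc1 (r = 0.997) and Smndc1 (r = 0.993), and for Hsp90aa1 Selk (r = 0.992) and Usp38 (r = 0.988). No member was among the 2 nearest genes of another.

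The wider chaperone network was described with 11 lists of 129 genes, 109 of which were tested. In GV oocytes 43 of the 109 were lower in the null (40.6% of all genes) and 1 was higher (2.83%), and without ERCC scaling 9 and 7, so the direction at GV depended on the scaling. Among HSP90 co-chaperones, 6 of 15 were lower, again beside 40.6% of all genes, led by Sugt1 (157 against 336 FPKM, log2 fold change -1.09) and Chordc1 (11.9 against 26.4, -1.07), partners of HSP90 in complex assembly. Of 7 HSP70 relatives tested, 5 were lower (40.6% of all genes), among them the exchange factor Hsph1 (22.2 against 40.3 FPKM, -0.84) and Hspa4l (5.87 against 10.7, -0.75). The ER paralog of HSP90, Hsp90b1, was lower (59.6 against 89.6, -0.57). The calls of Hsph1 and Hsp90b1 were lost without WT GV replicate 1 or null GV replicate 2. Those of Hsph1, Hspa4l and Hsp90b1 were lost without ERCC scaling, and with median scaling those of Sugt1, Chordc1, Hsph1 and Hspa4l were lost and Hsp90b1 turned to 0.01.

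Of 32 J-domain proteins 16 were lower at GV (40.6% of all genes), led by Dnajc14 (5.98 against 20.3 FPKM, -1.62). The stress-response factor Atf4 was lower (78.8 against 133, -0.79), a call lost without replicate 1 of WT or null GV. Ddit3, the stress factor CHOP, was the 1 gene that was higher (90.8 against 65.3, 0.47), a call lost without any 1 of the 4 GV libraries. The heat shock factor Hsf1 was lower too (8.54 against 14.0, -0.65). The calls of Atf4 and Hsf1 were lost without ERCC scaling (log2 fold changes -0.34 and -0.25) and with median scaling (-0.20 and -0.11), whereas those of Dnajc14 and Ddit3 held. At the growing stage 14 of the 109 were higher (10.6% of all genes) and 14 lower (24.4%), and Hsf2 (25.1 against 8.90 FPKM, 1.39) and the immunophilin Fkbp4 (26.5 against 13.2, 0.96) were among the higher and the immunophilin Fkbp5 (16.5 against 37.8, -1.15) and Hsf5 (8.53 against 18.1, -1.02) among the lower.

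In MII oocytes 23 of the 109 were higher in the null (21.5% of all genes) and 8 lower (10.3%), close to the shares over all genes, and without ERCC scaling 29 and 21. Mitochondrial import and quality control genes had 7 of 14 higher (21.5% of all genes) and none lower (10.3%), with a median log2 fold change of 0.51 beside 0.06 for all genes, and 8 higher and 1 lower without ERCC scaling. Pam16, a subunit of the import motor that works with Hspa9, had a mean of 335 FPKM in null and 24.0 in WT MII oocytes (log2 fold change 3.75). Dnajc19, another motor subunit, was at 34.1 in null and 13.7 in WT MII oocytes (1.24). With ERCC scaling both messages were lower in null MII than in null GV oocytes. Pam16 went from 466 and 414 to 373 and 297 FPKM, and Dnajc19 from 83.2 and 69.0 to 39.8 and 28.4. The ERCC factors dropped from 0.533 and 0.583 to 0.283 and 0.252 between these groups. That drop was larger than the fall of Pam16 and about as large as that of Dnajc19. Neither fall is therefore shown without the factors. Of these parts of the import motor, Pam16 and Dnajc19 were higher and Hspa9 was lower in the same oocytes.

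Nucleotide exchange factors and other HSP70 cofactors had 5 of 9 higher and none lower in null MII oocytes (6 and 1 without ERCC scaling). The shares of all genes to read this and the next lists against were 21.5% higher and 10.3% lower. Of 15 HSP90 co-chaperones 3 were higher, among them the ubiquitin ligase Stub1 (13.9 against 1.19, 2.76), and 3 were lower, among them Fkbp5 (4.32 against 14.4, -1.53). Of 10 ER folding genes 3 were higher, with the lectin Calr at 45.1 against 10.2 FPKM (2.07) and the isomerase Pdia6 at 18.6 against 8.65 (1.03), whereas Calr's membrane-bound relative Canx was lower (log2 fold change -0.67, a call lost without null MII replicate 2). Atf4, of the unfolded protein response list (2 of 7 higher), was at 58.9 against 3.54 FPKM (3.71).

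Among 32 J-domain proteins 1 was higher and 4 lower in null MII oocytes (21.5% and 10.3% of all genes), the lower ones including Dnajc3, an ER partner of Hspa5 (15.8 against 27.0 FPKM, -0.74). The small heat shock protein list had 1 of 3 higher (Hspb11, also a subunit of the ciliary transport complex, 15.4 against 4.91, 1.48), the heat shock factor list 1 of 5 and the immediate early list none of 5. None of the 7 HSP70 relatives tested and neither HSP90 relative was called at this stage. Of the ER genes named, Hspa5, Calr and Pdia6 were higher and Canx and Dnajc3 lower.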

How the data were processed

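Oocyte RNA was sequenced after Smart-seq2 amplification in 12 libraries of 10 oocytes, 2 per group. Per the labels and methods, the authors aligned trimmed reads to mm9 with TopHat2 (version 2.1.1), kept uniquely mapped reads and computed FPKM with Cufflinks (version 2.2.1). The deposited FPKM values were then multiplied by the authors with a ratio of ERCC spike-in shares, each library relative to the WT growing library of the same replicate number. The table holds no counts, so the depth behind a value is unknown and no counting interval is given. The scaling factors were recovered from the values, all of which had 6 significant digits after division.

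Here log2(FPKM + 1) was fitted with limma (version 3.58.1, R 4.3.3), 1 term per group over 12 libraries, with an intensity trend and Benjamini-Hochberg adjustment over the 11502 genes with at least 1 FPKM in a library. Fold changes are on that scale and understate those of low genes. Errors after ± are standard errors. An exact permutation of 2 against 2 libraries cannot go below 0.333. The scripts were tested on simulated data. Alternatives were other scalings, pseudocounts, filters, fits and left-out libraries. Genes named outside the 10 were the 2 most changed per list and direction with a mean of at least 10 FPKM and no overlap, and the 2 most alike, and 1 gene that the rule selects is not reported here. The genes, lists and tests were chosen with earlier results of these data known.

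Positions and 3′ ends come from GENCODE vM1 on NCBIM37, the build of the table, and promoters (6 of the 10 genes) from RefSeq on GRCm38.p6. Protein sequences were not used here.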

Additional observations from a re-analysis of the deposited data

Results flagged for a closer look

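By the interaction term, 2 chaperone genes changed differently between genotypes from the growing to the GV stage. Both fell more in Zar1/2-null oocytes, Hspa5 with a log2 difference of -0.87 (SE 0.21, limma adjusted p = 0.0227) and Hspa9 with one of -0.86 (SE 0.24, limma adjusted p = 0.0363). Both calls were lost without ERCC scaling (log2 differences -0.72 and -0.71) and with median scaling (-0.46 and -0.45). They were also lost in the fit on the compared groups alone. Both null libraries of Hspa5 were above both WT libraries in growing oocytes and below them at GV.

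From GV to MII the interaction was above 0 for 5 genes, that is, their log2 change was higher in null than in WT oocytes. It was 2.64 for Hspa5 (SE 0.21, limma adjusted p = 3.62e-06), 2.36 for Hspe1 (SE 0.28, limma adjusted p = 9.04e-05), 1.22 for Hspa8 (SE 0.29, limma adjusted p = 0.00789), 0.98 for Hspa4 (SE 0.21, limma adjusted p = 0.00492) and 0.65 for Hsp90ab1 (SE 0.22, limma adjusted p = 0.0376). Those of Hspa5 and Hspe1 kept their call in all 16 alternatives computed, those of Hspa8 and Hspa4 in 14 and that of Hsp90ab1 in 7. The value of Hspa4 does not show a smaller fall, since its MII level was near 1 FPKM in both genotypes. The median of all genes moved in the same direction, by 0.48.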

How the results depend on the processing

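Of the genotype effects in MII oocytes, those of Hspa5, Hspe1, Hspa8 and Hspa9 kept direction and call in all 12 alternatives. Leaving out 1 library gave 3 to 6 genes lower in null GV oocytes, 1 to 2 lower in null MII, 4 to 5 lower from growing to GV in WT and 7 to 9 in null oocytes, 8 to 9 lower over maturation in null oocytes, 0 to 2 for the growth interaction and 4 to 6 for the maturation interaction (lower and higher).

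The ERCC factors moved most counts. Over all genes tested, without them 827 were higher and 1554 lower in null GV oocytes (325 and 4666 with them), 2831 and 2694 in null MII (2472 and 1183) and 2267 and 5473 over WT maturation (12 and 10747). Among the 10 genes and without the factors, 2 were higher in null growing oocytes, 2 lower at GV and 1 was lower in MII by the 3-fold rule. From growing to GV 1 was lower in WT and 5 in null oocytes. Over maturation 2 were higher in WT and 2 in null oocytes. The growth interaction had 0, and the maturation interaction 2 higher and 2 lower. With median scaling the same counts were 2, 1 and 1, then 1 in WT, 5 lower and 1 higher in null oocytes. Over maturation 3 were higher and 5 lower in WT, 4 higher and 4 lower in null oocytes. The interactions then gave 0 for growth and 2 higher and 3 lower for maturation.

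Directions turned as follows, without ERCC scaling. Over WT maturation Hsp90aa1 gave 0.58 and Hsp90ab1 0.79, over null maturation Hspa5 0.35, Hspe1 0.62 and Hsp90ab1 0.75, and in the maturation interaction Hsp90ab1 -0.035, Hsp90aa1 -0.66, Hspa9 -0.68 and Hspd1 -0.37. The genotype effect on Hspd1 in MII was -0.17. With median scaling, WT maturation gave Hsp90aa1 1.52, Hsp90ab1 1.72, Hspa9 0.92 and Hspd1 0.29, null growth Hsp90aa1 0.13, null maturation Hsp90aa1 0.59, Hspa5 1.01, Hspe1 1.30 and Hsp90ab1 1.42, and the interaction Hsp90ab1 -0.30, Hsp90aa1 -0.93, Hspa9 -0.95 and Hspd1 -0.61. The genotype effects were Hspd1 -0.29 and Hsp90ab1 -0.10 in MII and Hsp90b1 0.011 at GV. In these cases the scaling moved all genes of a library together. Leaving out 1 library moved the maturation interaction of Hsp90aa1 between -0.16 and 0.23 and that of Hspa9 between -0.088 and 0.23.

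The pseudocount of 0.1 FPKM and the filter on a mean of 5 FPKM left 1 gene in the growth interaction and the fit on the compared groups alone 0. That fit and the one with no trend each called 1 gene lower in null growing oocytes. With the replicate number as a block that count was 1, the growth interaction had 4 and the fall of Hspe1 over null maturation was called. The labels name nothing that same-numbered libraries share, though the ERCC factors refer each library to the WT growing library of its number. Over all pairs of groups the correlations of same-numbered deviations ran from -0.12 to 0.16, not all above 0.1, so the numbers were not taken as pairs. Between genotypes they were 0.16 in growing, -0.12 in GV and 0.09 in MII oocytes. With the GV numbers crossed, an alternative added after seeing the data, 6 genes were lower in null GV oocytes. Unknown depth limits the low levels, such as Hspa4 in MII oocytes.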
